A study of Mus musculus with 8 samples.

Results

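Embryonic germ (EG) cells, which are pluripotent cells grown out of germ cells in culture, were set against E11.5 primordial germ cells (PGCs), taken from the mid-gestation embryo, the embryonic precursors of eggs and sperm. The comparison holds the arrays titled as EG cells, 2 in number, and the arrays titled as E11.5 PGCs, also 2, of 8 arrays in all. All cells are mouse cells with a Nanog-GFP reporter. EG cells are labelled with 2i+A83. This cocktail blocks MEK with PD325901 at 1 µM, GSK3 with CHIR99021 at 3 µM, and the receptors for Activin and Nodal with A83-01 at 250 nM. The labels list these inhibitors, and a medium with 15% serum replacement, LIF and bFGF, on the E11.5 PGC samples as well, so they do not say whether the PGCs met them. The other 4 arrays are from days 3 and 6 of the culture, 2 each. The labels do not say whether the 2 EG arrays come from separate lines or cultures, or how many embryos gave the PGCs, and they call the source of all samples primordial germ cell. Hence p-values measure only the spread between arrays.

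Germ cells and pluripotent stem cells share much of their transcription factor network, and PGCs placed in culture with LIF and growth factors can give rise to EG cells. PGCs at this stage have colonised the gonad, express RNA-binding proteins and transposon-silencing genes of the germ line, and have lost most of their DNA methylation and imprints. EG cells self-renew, can contribute to embryos much as embryonic stem cells do, and are held in the naive state by MEK and GSK3 inhibitors with LIF.

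RNA was hybridised to one-colour TORAY oligonucleotide arrays. Values are intensities as deposited, with array medians near 20. Changes are log2 EG minus E11.5 PGC from limma with a standard error (n = 2 arrays per group) and a call at a Benjamini-Hochberg adjusted p under 0.05. The 2 EG arrays correlated at r = 0.988 over 19524 probes, the 2 PGC arrays at 0.973, and EG with PGC arrays at 0.899 to 0.930. The array names fall in a series A (both EG arrays and PGC replicate 1) and a series B (PGC replicate 2). List medians and some changes are therefore also given within series A, where both EG arrays face 1 PGC array. Calls within series A take their spread from the 2 EG arrays alone and hold no spread between PGC arrays. Of 23473 probes, 20761 had a value on all 4 arrays and were tested.

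Between EG cells and E11.5 PGCs 2490 probes were called, which is 12.0% of those tested. Of these 1217 were higher in EG cells (5.86%) and 1273 lower (6.13%). The gains were the larger changes: 639 of the higher probes moved by more than 2 on the log2 scale and 47 by more than 5, compared with 375 and 9 of the lower probes. The median change over all tested probes was -0.16 (-0.22 within series A). The EG and PGC arrays did not overlap for any called probe, but this also held for 24.3% of all tested probes on the higher and 39.9% on the lower side. With a term for the array series 5106 probes were called (24.6%), 1982 higher (9.55%) and 3124 lower (15.0%), and 2488 of the 2490 were among them. At an unadjusted p under 0.05 limma picked 5805 of the 20761 tested probes, in either direction. All counts of list members below are to be read beside these shares of all probes. In such bulk RNA, fewer cells of a type and less RNA per cell cannot be told apart. Far fewer probes were called when any 1 EG or PGC array was left out, where 1 array stood for its whole group. The count changed much less when a day 3 or day 6 array was left out. With 1 array in a group the test is weaker whatever that array holds. The drop without an EG or PGC array therefore cannot show how far the calls rest on particular arrays.

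**Figure D1:**
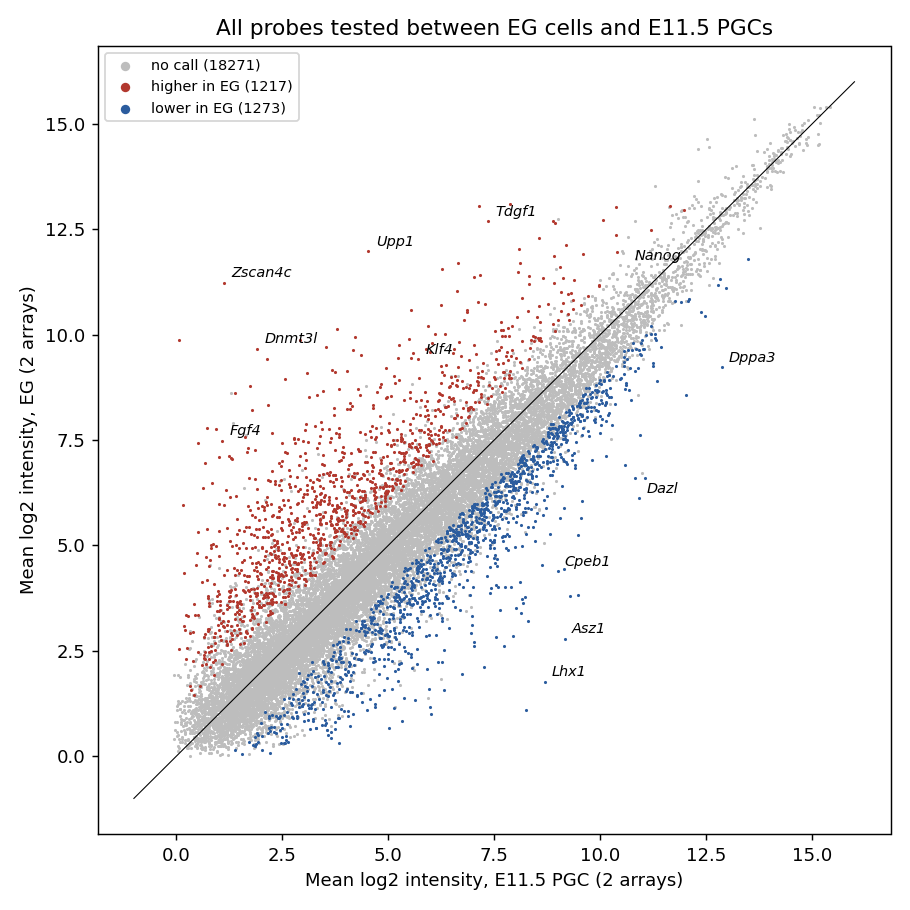
Mean log2 intensity of each tested probe in EG cells (vertical) against E11.5 PGCs (horizontal), 2 arrays each, with the line of equality. Red probes are the 1217 called higher in EG cells, blue the 1273 called lower, and grey the rest; Zscan4c and Dnmt3l lie far above the line, and Lhx1 and Asz1 far below it.

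Pluripotency genes that rose in EG cells lay at levels in PGCs that ran from very dim (Fgf4) to bright (Zfp42), and others were not called or fell. Fgf4, which signals through FGF receptors, had intensities of 152 and 209.8 in EG cells, against 1.82 and 2.46 in E11.5 PGCs. Eras, a Ras protein of embryonic stem cells, had 378 and 649 in EG cells, against 7.68 and 4.58 in E11.5 PGCs. Tdgf1, the Nodal co-receptor Cripto, had 5215 and 8475 in EG cells, against 146 and 183 in E11.5 PGCs. These rose by 6.40 ± 0.49, 6.39 ± 0.60 and 5.35 ± 0.52, and by 6.62, 6.01 and 5.51 within series A. Since the PGC values of Fgf4 lie under 4.56, an intensity below which 90% of the values of incompletely measured probes fall, its size is not exact (5.45 with a pseudocount of 2).

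Among genes already bright in PGCs, Zfp42 (Rex1), a marker of naive cells, had 5342 and 5250.4 in EG cells, against 1416 and 1235 in E11.5 PGCs, a rise of 2.00 ± 0.29. Fbxo15, an F-box protein gene of undifferentiated cells, had 1767 and 3601 in EG cells, against 696 and 647 in E11.5 PGCs, a rise of 1.91 ± 0.41. Nanog, the core pluripotency factor and reporter gene, had 2422 and 4183 in EG cells, against 1520.2 and 1707 in E11.5 PGCs. The Nanog arrays did not overlap, yet the log2 difference of 0.98 ± 0.46 gave no call (adjusted p = 0.218), although it was called with a term for the array series (0.0419). Dppa5a, an RNA-binding protein gene of pluripotent and germ cells, had 26506 and 28405 in EG cells, against 13998 and 11815 in E11.5 PGCs, a log2 difference of 1.09 ± 0.30 (adjusted p = 0.0576, and 0.0399 with the series term). Over the core pluripotency list, of 24 tested members 8 rose and 1 fell, and the median change was 0.50 (0.39 within array series A). The member that fell was Dppa3. Nodal, a TGF-beta ligand, and Sall1, a zinc finger factor, rose by 1.76 ± 0.29 and 2.04 ± 0.50. Utf1, a chromatin-bound factor of pluripotent cells, was not called (log2 difference -1.24 ± 0.42, adjusted p = 0.103), but was called lower with the series term (0.0215).

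Of the naive list 8 of 28 tested members rose, where 5.86% of all probes did. Besides regulators these include Manba (4.22) and Nlrp4f (4.19, from near the floor in PGCs), the latter also in the cleavage-stage list. Tbx3, a T-box repressor, had 160.4 and 209.6 in EG cells, against 4.94 and 10.7 in E11.5 PGCs, Nr0b1 (Dax1), an X-linked nuclear receptor, 1850.2 and 1516 in EG cells, against 77.0 and 75.1 in E11.5 PGCs, and Klf4, a Kruppel-like factor, 550.01 and 846 in EG cells, against 55.9 and 49.2 in E11.5 PGCs. The 3 genes rose by 4.65 ± 0.66, 4.46 ± 0.33 and 3.70 ± 0.32. Stat3, activated by LIF signalling, rose by 1.72 ± 0.28. Prdm14, which acts both in germ cell specification and in naive cells, had 119.5 and 146 in EG cells, against 172 and 123 in E11.5 PGCs, with overlapping arrays and a log2 difference of -0.14 ± 0.28. Klf2, Klf5 and Nr5a2, an orphan nuclear receptor, had log2 differences of 0.37 ± 0.24, 0.96 ± 0.32 and -1.25 ± 0.66, and limma called none of the 3 (adjusted p = 0.367, 0.104 and 0.271). With a term for the array series Klf5 was called (adjusted p = 0.0134). The probes for Esrrb (17.9 and 22.2 in EG cells, against 7.20 and 17.5 in E11.5 PGCs) and Tfcp2l1 (9.63 and 10.4 in EG cells, against 16.1 and 23.98 in E11.5 PGCs), 2 factors of the naive network, were dim in both groups and gave no call, although Esrrb was called higher with the series term (adjusted p = 0.00996). Over the naive list 2 fell (14 higher and 2 lower with the series term), with a median of 0.82 (0.91 within array series A). The 2 that fell were Dppa3, described with the germ cell genes, and Pecam1, a surface adhesion molecule of endothelium, germ cells and stem cells (-2.35 ± 0.53, not called with quantile normalization). In the primed and formative epiblast list, of 17 tested members 1 rose and 1 fell (5.88% each way), near the 5.86% and 6.13% of all probes. Dnmt3b rose and Fgf5, a marker of primed epiblast, fell by 2.84 ± 0.41, with 2.54 and 2.83 in EG cells, against 14.4 and 25.7 in E11.5 PGCs.

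**Figure D2:**
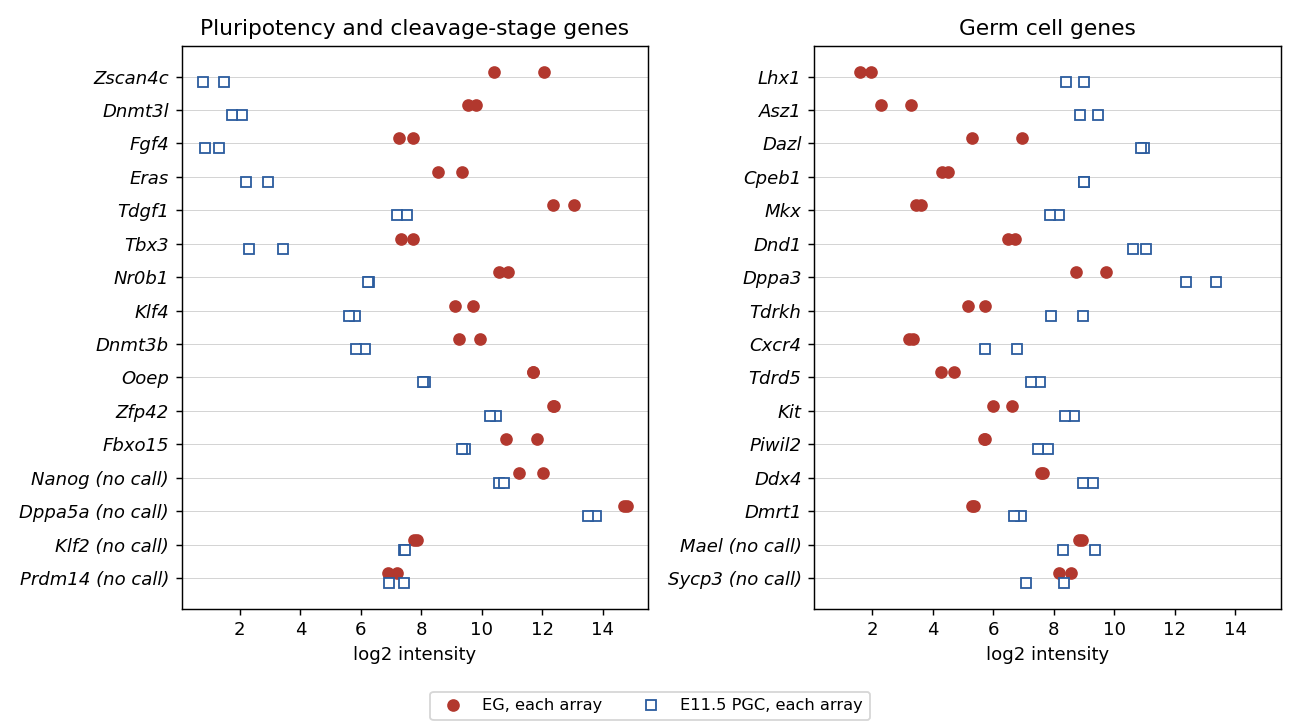
Log2 intensity (horizontal) on each array for pluripotency and cleavage-stage genes (left) and germ cell genes (right); red circles are the 2 EG arrays and open blue squares the 2 E11.5 PGC arrays. The arrays of the 2 groups overlap only for Prdm14, Mael and Sycp3 among the genes shown, and genes without a call are marked.

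Genes of cleavage-stage embryos and oocytes held the gene with the highest named change. Zscan4c, a zinc finger gene of the 2-cell embryo that marks a small fraction of stem cells at any time, had 1368 and 4256 in EG cells, against 2.79 and 1.71 in E11.5 PGCs, a computed rise of 10.11 ± 1.10 (9.76 within series A). Obox1, an oocyte homeobox gene, had 104 and 474 in EG cells, against 1.505 and 1.84 in E11.5 PGCs and rose by 7.06 ± 0.84. For both, EG replicate 2 lay above replicate 1 and the PGC values lay near the floor. With the pseudocount the rises were 9.16 and 5.94. Zscan4c and Obox1 belong to families of near-identical copies, so a probe may read several of them. Ooep, part of the subcortical maternal complex of the oocyte, was called from a higher base, with 3344 and 3290.1 in EG cells, against 281 and 269 in E11.5 PGCs (3.59 ± 0.25). Padi6 (2.66) and Khdc3 (2.27), of the same complex or its lattice, also rose, and so did the zona pellucida gene Zp3 (2.26) and the histone chaperone gene Npm2 (2.20). In total, of 23 tested members 8 rose and 1 fell, with a median of 0.50 (0.34 within array series A). The member that fell was Dppa3. Patl2, an RNA-binding protein gene of oocytes outside the list, had 487 and 395 in EG cells, against 3.63 and 3.04 in E11.5 PGCs and rose by 7.04 ± 0.33 (6.37 with the pseudocount).

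Of 23 tested germ cell specification genes 7 fell, and of 33 tested later germ cell RNA regulators 9 fell, where 6.13% of all probes did. Lhx1, a LIM homeobox gene, had 3.87 and 2.997 in EG cells, against 513 and 335 in E11.5 PGCs, the lowest change of the named genes (-6.93 ± 0.35, and -6.26 with the pseudocount, since the EG values lie near the floor). Dnd1, an RNA-binding protein without which PGCs are lost, fell by 4.24 ± 0.39 (89.3 and 104 in EG cells, against 2140.03 and 1555 in E11.5 PGCs). Dppa3 (Stella), a maternal factor that guards methylation, fell by 3.64 ± 0.67, but stayed well above the floor, at 843 and 424 in EG cells, against 10543 and 5303 in E11.5 PGCs. Mkx, a homeobox gene, fell by 4.49 ± 0.25, and Kit, the receptor for stem cell factor, fell by 2.22 ± 0.44. Cxcr4, the chemokine receptor that guides migrating PGCs, fell by 2.98 ± 0.46, with 9.35 and 10.1 in EG cells, against 111 and 53.01 in E11.5 PGCs. In the specification list, of 23 tested members 1 rose and 7 fell, with a median of -0.74 (-0.50 within array series A). The member that rose was Elf3, an ETS factor (1.22 ± 0.27).

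Several early germ cell genes gave no call. Prdm1 (Blimp1), the repressor that founds the lineage, had 35.6 and 19.6 in EG cells, against 19.7 and 44.3 in E11.5 PGCs, and Tfap2c, its partner, 404 and 319.9 in EG cells, against 713 and 503 in E11.5 PGCs. Alpl, the alkaline phosphatase used to stain both cell types, had 576 and 738 in EG cells, against 645 and 712 in E11.5 PGCs, and Ifitm3 (fragilis), a surface marker of PGCs, 2339 and 1763 in EG cells, against 1499 and 1559 in E11.5 PGCs. The log2 differences were -0.16 ± 0.47, -0.74 ± 0.49, -0.06 ± 0.26 and 0.41 ± 0.32, all without a call. Nanos3, needed for PGC survival, had 262 and 147 in EG cells, against 919.8 and 368 in E11.5 PGCs. Both EG arrays lay below both PGC arrays, but the PGC arrays were far apart. The log2 difference was -1.57 ± 0.72 without a call (adjusted p = 0.211), and -2.23 within series A.

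Among later germ cell RNA regulators 9 of 33 tested members fell and 0 rose with limma, where 6.13% of all probes fell and 5.86% rose. At an unadjusted p under 0.05, 17 were lower and 0 higher, where 5805 of all 20761 probes passed in either direction. With the series term 1 was higher and 14 lower, where 9.55% and 15.0% of all probes were. The list median was -1.16 (-1.09 within array series A). Asz1, a nuage protein of the piRNA pathway, had 4.89 and 9.76 in EG cells, against 711 and 464 in E11.5 PGCs, a change of -6.38 ± 0.73. Dazl, an RNA-binding protein that licenses germ cells, had 39.2 and 124 in EG cells, against 2024 and 1867 in E11.5 PGCs, a change of -4.80 ± 0.86, with EG replicate 2 above replicate 1. Cpeb1, which controls polyadenylation in oocytes, fell by 4.60 ± 0.34. The tudor protein genes Tdrkh (-2.99 ± 0.53) and Tdrd5 (-2.91 ± 0.38), the Piwi protein gene Piwil2 (-1.95 ± 0.38) and the piRNA helicase gene Mov10l1 (-1.99 ± 0.39) fell too. Ddx4 (Vasa), the germ cell helicase, had 201 and 191 in EG cells, against 626 and 498 in E11.5 PGCs, and fell by 1.51 ± 0.30. Dmrt1, a sex determination factor, fell by 1.47 ± 0.35, a call not made with quantile normalization. Mael, another piRNA pathway gene, had 455 and 493 in EG cells, against 653 and 314 in E11.5 PGCs, so its EG values lie between those of the 2 PGC arrays and no call was made (0.07 ± 0.48).

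Of 27 meiosis genes tested 3 were called, where 12.0% of all probes were: the cohesin gene Stag3 (-1.42) and Tex15 (-1.28) fell and Majin, a telomere tether (1.86), rose, with a list median of -0.57 (-0.79 within array series A). Sycp3, of the chromosome axis, had 289 and 378 in EG cells, against 319.7 and 137 in E11.5 PGCs. Both EG arrays exceeded PGC replicate 2, but EG replicate 1 lay below PGC replicate 1, and no call was made (log2 difference 0.66 ± 0.50). None of the 3 tested Rhox genes was called by limma, and 1 was lower at an unadjusted p under 0.05. Rhox6, an X-linked homeobox gene of germ cells and placenta, had 171 and 64.5 in EG cells, against 1338 and 3066 in E11.5 PGCs, a log2 difference of -4.27 ± 1.10 with an adjusted p at the threshold and no call, which the series term turned into a call (adjusted p = 0.0142).

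The 150 bases upstream of the start of Ddx4, Dazl, Asz1 and Sycp3 are shown because the first 3 fell and the last was not called, and because germ line promoters often carry E-box and E2F letters. Sequences are from RefSeq (GRCm38.p6), written 5′ to 3′ on the gene's strand, at chr13:112652311-112652460 (minus strand), chr17:50293621-50293770 (minus), chr6:18109062-18109211 (minus) and chr10:88459437-88459586 (plus). Capitals mark CACGTG (E-box) and GCGGGAA (E2F), searched on both strands.
Ddx4: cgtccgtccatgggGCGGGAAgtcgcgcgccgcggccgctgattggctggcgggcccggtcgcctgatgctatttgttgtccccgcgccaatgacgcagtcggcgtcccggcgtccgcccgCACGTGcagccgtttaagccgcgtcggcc
Dazl: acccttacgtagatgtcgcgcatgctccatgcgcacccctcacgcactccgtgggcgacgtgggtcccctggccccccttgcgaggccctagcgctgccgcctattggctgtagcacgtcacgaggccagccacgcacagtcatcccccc
Asz1: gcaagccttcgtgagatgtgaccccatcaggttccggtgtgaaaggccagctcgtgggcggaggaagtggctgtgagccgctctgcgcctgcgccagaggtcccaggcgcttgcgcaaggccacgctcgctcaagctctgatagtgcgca
Sycp3: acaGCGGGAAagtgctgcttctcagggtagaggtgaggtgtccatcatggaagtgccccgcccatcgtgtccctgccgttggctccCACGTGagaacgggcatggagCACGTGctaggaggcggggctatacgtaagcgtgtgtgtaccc
Ddx4 holds both motifs and Sycp3 holds the E-box at -64 and -43 and the E2F letters at -147, counted from the start to the first base of the match, whereas Dazl and Asz1 hold neither. The set of promoters searched did not hold every gene. It held 11869 of 14804 tested genes, 731 of 908 higher in EG cells and 867 of 1062 lower. Genes outside the set, called ones among them, were not searched. In windows of 300 bases, the E-box letters stood in 3 of 7 matched genes of the lower germ cell list. They stood in 84 of 731 matched genes higher in EG cells and in 119 of 867 lower. The shares were 10.6% of the 11869 matched tested genes and 8.09% of the 27025 genes in the set. The E2F letters stood in 2 of those 7 genes, in 49 of 731 higher and in 91 of 867 lower. They stood in 8.37% of the matched tested genes and 5.29% of the genes in the set. The median number of CG pairs per window was 16 for matched genes higher in EG cells, 24 for those lower and 19 for matched tested genes. These are matches of letters, and no binding was measured.

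DNA methylation genes moved in both directions. Dnmt3l, the inactive partner of the de novo enzymes, had 902 and 738 in EG cells, against 4.197 and 3.38 in E11.5 PGCs, a rise of 7.76 ± 0.92 from near the floor (7.15 with the pseudocount). Dnmt3b, a de novo methyltransferase, had 974 and 612 in EG cells, against 70.6 and 57.4 in E11.5 PGCs, and Uhrf1, which recruits the maintenance enzyme to replicated DNA, 1656 and 1434 in EG cells, against 166 and 81.3 in E11.5 PGCs. They rose by 3.60 ± 0.40 and 3.73 ± 0.48. Uhrf2, the relative of Uhrf1, fell, with 66.8 and 69.3 in EG cells, against 257 and 288 in E11.5 PGCs (adjusted p = 0.0151). Mbd3, of the NuRD complex (-2.06 ± 0.35), and Hells, a chromatin remodeller (-1.17), fell too. The other called members were Apobec1, a cytidine deaminase (2.25), Tet3, which oxidises methylcytosine, and Dppa3. Over the list, of 22 tested members 4 rose and 5 fell, with a median of -0.47 (-0.39 within array series A). Zfp57, which protects imprints in the embryo, was measured on both EG arrays (23.1 and 30.5) and on neither PGC array, so it has no fold and no test.

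Imprinted genes had no common direction. Of those expressed from the paternal allele in most tissues, Igf2, a fetal growth factor, fell by 3.94 ± 0.59 (4.16 and 5.301 in EG cells, against 38.8 and 133 in E11.5 PGCs) and Peg3, a zinc finger gene, fell by 3.07 ± 0.69, while Sgce, a sarcoglycan gene, rose by 4.52 ± 0.53 and Impact by 2.32 ± 0.35. Of those expressed from the maternal allele, Cd81, a tetraspanin, rose by 4.23 ± 0.48 and Meg3, a long RNA, by 2.60 ± 0.33, while Cdkn1c, a CDK inhibitor, fell by 2.48 ± 0.60. For the paternal list, of 18 tested members 2 rose (11.1%) and 5 fell (27.8%). For the maternal list, of 21 tested members 2 rose and 2 fell (9.52% each way). Of all probes 5.86% rose and 6.13% fell. Asb4, imprinted in some tissues, was measured on both PGC arrays (30.7 and 39.4) and on no EG array.

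Signalling genes are described by pathway, beginning with the 3 that the inhibitors of the EG medium act on. Feedback genes of MEK/ERK signalling fell where they were called. They were Il17rd (Sef), an inhibitor of FGF receptor signalling (-3.47 ± 0.44), Spred1, a Ras inhibitor (-2.60 ± 0.39), and Egr2, an immediate early factor (-1.68 ± 0.39), while 0 of 23 rose with limma (0 at an unadjusted p under 0.05) and the median was -0.48 (-0.61 within array series A). Among Wnt targets, Lef1, a partner of beta-catenin, had 4.43 and 3.72 in EG cells, against 31.9 and 40.5 in E11.5 PGCs, and fell by 3.15 ± 0.51 (-2.65 with the pseudocount). Msx2 fell by 5.11 ± 0.60. Lef1 and Msx2 were the 2 that fell of 24 tested (8.33%, where 6.13% of all probes fell). With limma 0 of 24 rose, where 5.86% of all probes did (0 higher and 5 lower at an unadjusted p under 0.05). In the TGF-beta, Activin and Nodal list, of 29 tested members 3 rose (10.3%) and 5 fell (17.2%), where 5.86% and 6.13% of all probes did. Beside Tdgf1 and Nodal, the matrix gene Ccn1 rose (1.28), whereas Smad2, the signal transducer, fell by 2.31 ± 0.27 (129 and 132 in EG cells, against 585 and 715 in E11.5 PGCs). Tgif2 and Skil, corepressors of Smads, had log2 changes of -2.28 ± 0.34 and -2.17 ± 0.26, and Foxh1, the Nodal-responsive partner of Smads, fell by 1.73 ± 0.34.

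BMP response genes supplied Id3 and Msx2, both of which belong to the 15 lowest changes. Id3, an inhibitor of helix-loop-helix factors, had 99.98 and 92.7 in EG cells, against 1643 and 2723 in E11.5 PGCs, a change of -4.46 ± 0.59, and Msx2, a homeobox target of BMP, had 5.85 and 6.41 in EG cells, against 227 and 197 in E11.5 PGCs, a change of -5.11 ± 0.60. Gata2 (-3.10 ± 0.62), the receptor gene Bmpr1a (-1.97 ± 0.30), Id4 (-1.81 ± 0.26) and the inhibitory Smad6 (-1.57 ± 0.32) fell as well. In all, of 23 tested members 1 rose and 6 fell, with a median of -0.23 (-0.49 within array series A), and the member that rose was the ERK phosphatase gene Dusp9 (1.82 ± 0.38). The LIF and STAT3 list split evenly, since of 22 tested members 4 rose and 4 fell. Klf4, Stat3, Bcl3 (1.89, not called with quantile normalization or the pseudocount) and the kinase gene Pim3 (1.34) rose, while the phosphatase gene Ptpn6 (-2.52), Socs2, a cytokine feedback inhibitor (-2.44), Jak2 (-1.34) and Ptpn11 (-1.22) fell. Hey1, a Notch target outside these lists, had 23.9 and 19.6 in EG cells, against 596 and 539.9 in E11.5 PGCs, a change of -4.71 ± 0.36.

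In the migration and adhesion list, of 25 tested members 4 rose and 6 fell. Gja1, the gap junction protein connexin 43, had 400.4 and 337 in EG cells, against 5.55 and 14.04 in E11.5 PGCs, a rise of 5.38 ± 0.50, and Ackr3, a scavenging receptor for the ligand of Cxcr4, rose by 2.46 ± 0.29 while Cxcr4 fell. Enpp2, which encodes autotaxin, fell by 3.84 ± 0.84. Basement membrane genes were among those that rose, Nid1 by 3.47 ± 0.45, Lama5 by 2.41 ± 0.34, Lamc1 by 1.45 ± 0.32 and the laminin receptor chain Itga6 by 2.21 ± 0.27, and over the matrix list, of 40 tested members 5 rose and 1 fell. Epithelial junction genes moved both ways, since of 30 tested members 5 rose and 4 fell: Pkp3, a desmosome protein (4.01), and Spint1, a protease inhibitor (3.90), rose, and Esrp1, an epithelial splicing factor (-2.69), and Dsp (-1.90) fell. Annexins and S100 proteins, which bind calcium and membranes, had 5 of 19 higher and 0 lower with limma (7 and 1 at an unadjusted p under 0.05), among them S100a10 (1138 and 939 in EG cells, against 70.1 and 67.1 in E11.5 PGCs; 3.91 ± 0.56) and Anxa8 (73.3 and 93.7 in EG cells, against 2.19 and 1.11 in E11.5 PGCs; 5.73 ± 0.64, and 4.55 with the pseudocount).

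**Figure D3:**
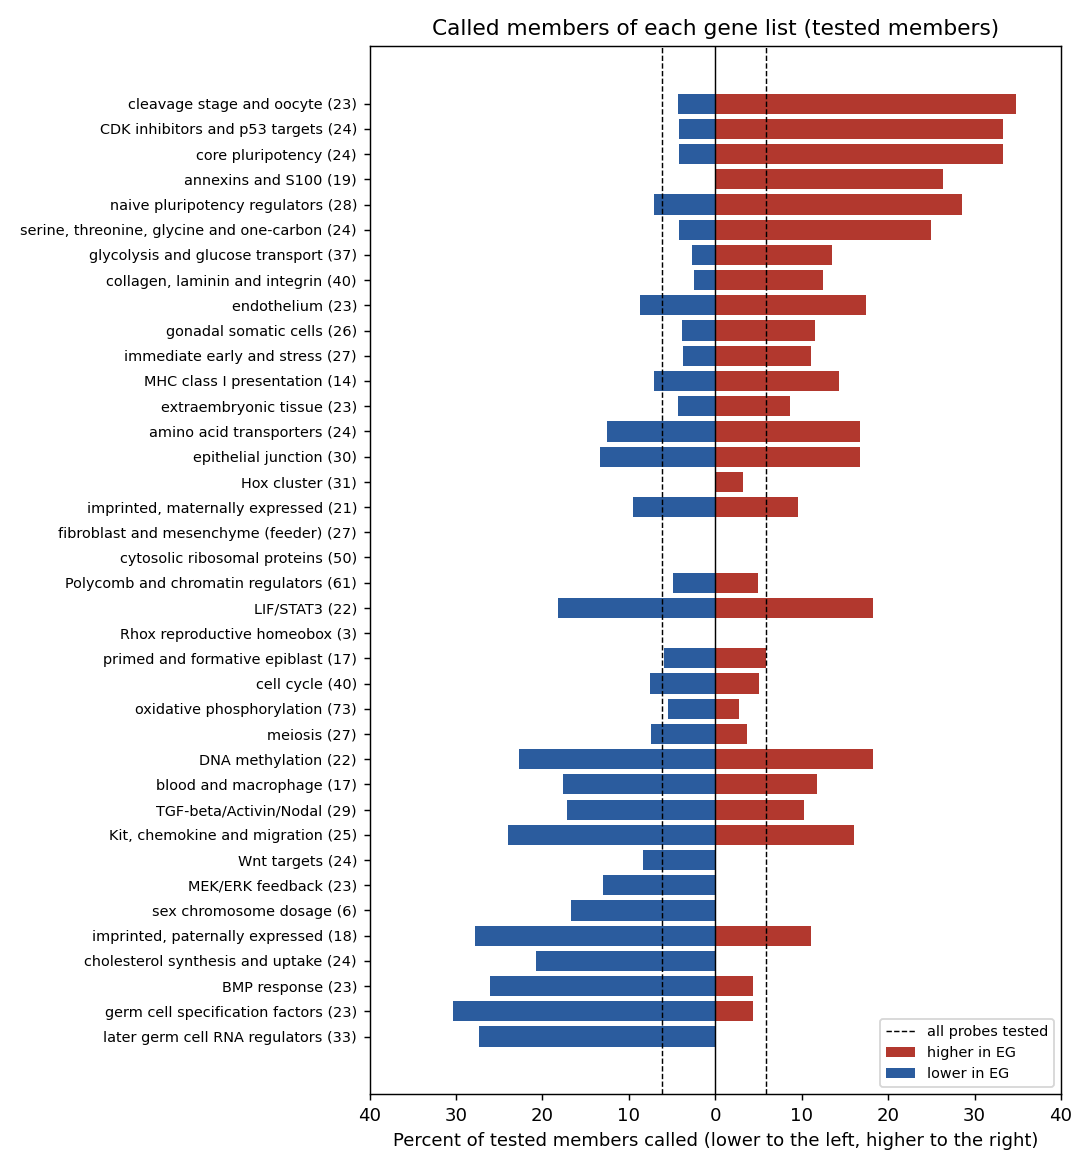
Percent of tested members of each gene list called higher in EG cells (red, to the right) and lower (blue, to the left), with the number tested in brackets; dashed lines give the same for all tested probes, 5.86% and 6.13%. The cleavage-stage list, the list of CDK inhibitors and p53 targets, and the core pluripotency list reach furthest to the right. The germ cell specification (30.4%), paternally expressed imprinted (27.8%) and later germ cell (27.3%) lists reach furthest to the left.

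Of the glucose uptake and glycolysis genes called, all but Ldhc rose. The glucose transporters Slc2a3 and Slc2a1 had 3174 and 4384 in EG cells, against 574 and 401 in E11.5 PGCs, and 922 and 1276 in EG cells, against 225 and 150.5 in E11.5 PGCs. They rose by 2.96 ± 0.31 and 2.56 ± 0.43, Hk2, the hexokinase that traps glucose, by 2.41 ± 0.26, and the lactate exporter gene Slc16a3 by 2.72 ± 0.51. In this list of 37 tested members 5 rose and 1 fell (Ldhc, the lactate dehydrogenase of germ cells, -2.69), with a median of 0.55 (0.44 within array series A). For oxidative phosphorylation, of 73 tested members 2 rose (2.74%) and 4 fell (5.48%), where 5.86% and 6.13% of all probes did. The median of this list was -0.25 (-0.52 within array series A). With the series term 3 were higher and 19 lower, where 15.0% of all probes were lower. Of its calls, the isoform genes Cyct and Cox8c had changes of -2.55 ± 0.42 and -2.23 ± 0.33, and the isoform gene Cox6b2 rose by 1.89 ± 0.37. The ribosomal protein list had 0 of 50 called with limma, where 12.0% of all probes were. At an unadjusted p under 0.05, 3 were higher and 1 lower, where 5805 of all 20761 probes passed in either direction.

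Genes of amino acid metabolism rose more often than they fell. Bcat1, which transaminates branched-chain amino acids, had 649 and 968 in EG cells, against 16.3 and 19.7 in E11.5 PGCs, a rise of 5.47 ± 0.51, and Cth, which makes cysteine, had 361 and 399 in EG cells, against 21.8 and 18.5 in E11.5 PGCs, a rise of 4.24 ± 0.29. Bcat2 rose by 2.45 ± 0.35 and Gnmt, a glycine methyltransferase, by 2.25 ± 0.35, while Mtr, methionine synthase, fell by 1.76 ± 0.29. In the one-carbon list, of 24 tested members 6 rose and 1 fell. The creatine transporter gene Slc6a8 had 481 and 627 in EG cells, against 12.5 and 5.84 in E11.5 PGCs (6.01 ± 0.46), and the cationic amino acid transporter gene Slc7a3 rose by 3.60 ± 0.91. Cholesterol synthesis and uptake genes had 0 higher and 5 of 24 lower with limma (1 and 9 at an unadjusted p under 0.05), with a median of -0.45 (-0.60 within array series A). The lower ones were Abcg1, a sterol exporter (-2.73), Dhcr7 (-2.56), Stard4 (-1.82), Idi1 and Sqle (-1.24), which act in synthesis or transport.

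The list of CDK inhibitors and p53 targets was among those with most gains. Ccng1, cyclin G1, had 367 and 361 in EG cells, against 32.3 and 29.2 in E11.5 PGCs, a rise of 3.57 ± 0.24; Phlda3, an inhibitor of Akt, had 458 and 293 in EG cells, against 42.1 and 23.5 in E11.5 PGCs, a rise of 3.54 ± 0.40; and Zmat3, an RNA-binding p53 target, rose by 3.02 ± 0.35. Perp, Btg2, Plk2, Ei24 and the death receptor gene Fas rose by 1.98, 2.01, 1.64, 1.32 and 1.22. Altogether, of 24 tested members of this joint list 8 rose and 1 fell (the CDK inhibitor gene Cdkn1c), with a median of 0.85 (0.73 within array series A). In the cell cycle list of 40 tested members 2 rose (5.0%) and 3 fell (7.5%), near the 5.86% and 6.13% of all probes. With the series term 3 were higher and 13 lower, where 9.55% and 15.0% of all probes were. The median of the cell cycle list was -0.45 (-0.45 within array series A). Called were Ccna1, a germ cell cyclin, higher (3.20, from near the floor in PGCs) and Mcm6, of the replicative helicase, lower (-1.34, not called with quantile normalization), among others. Stress genes gave 3 higher (11.1%) and 1 lower (3.7%) of 27, where 5.86% and 6.13% of all probes were. Nupr1, a stress-induced chromatin protein, had 460.1 and 330.1 in EG cells, against 4.27 and 1.61 in E11.5 PGCs (7.22 ± 0.80, and 6.36 with the pseudocount), Chac1, which degrades glutathione, rose by 5.26 ± 0.97, and Hspb1, the small heat shock protein HSP27, had 8746 and 8789 in EG cells, against 240.2 and 233 in E11.5 PGCs (5.21 ± 0.24). Dnajb1, a co-chaperone of Hsp70, fell by 1.59 ± 0.26.

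Of chromatin regulators, of 61 tested members 3 rose and 3 fell (4.92% each way, where 5.86% of all probes rose and 6.13% fell). With the series term 6 were higher and 11 lower, where 9.55% and 15.0% of all probes were. Chd7, a remodeller, rose by 2.20 ± 0.36, and Pcgf5, a Polycomb ring finger protein, and Hdac2, a deacetylase, had changes of -2.20 ± 0.28 and -1.79 ± 0.30. Among Hox genes 1 of 31 was called, where 12.0% of all probes were. It was Hoxb9, with 84.6 and 102 in EG cells, against 42.05 and 41.7 in E11.5 PGCs (1.15 ± 0.25). In class I antigen presentation, of 14 tested members 2 rose and 1 fell: Psmb9, of the immunoproteasome, and the transporter gene Tap1 rose by 2.12 ± 0.48 and 1.39 ± 0.30, while Irf1, an interferon regulatory factor, fell by 1.57 ± 0.33.

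Other genes were named for the size of their change alone. Higher in EG cells were Upp1, uridine phosphorylase, with 2972 and 5525 in EG cells, against 36.9 and 14.5 in E11.5 PGCs (7.45 ± 0.51), and Fabp3, a fatty acid binding protein, with 9507 and 7574 in EG cells, against 214 and 93.05 in E11.5 PGCs (5.91 ± 0.54). Klf9, a Kruppel-like factor, had 806 and 859 in EG cells, against 11.7 and 11.6 in E11.5 PGCs (6.16 ± 0.28), and Fez1 and Myo1f rose by 6.82 ± 0.50 and 6.16 ± 0.54. The adenylate kinase gene Ak7 and the ubiquitin-like Ubd rose by 5.74 and 5.63. Lower in EG cells were Mogat2, an acyltransferase, with 13.9 and 14.2 in EG cells, against 1099 and 350.3 in E11.5 PGCs (-5.46 ± 0.77), Runx1t1, a corepressor, with 8.21 and 6.396 in EG cells, against 209 and 288 in E11.5 PGCs (-5.08 ± 0.37), and the unannotated BC048679 (-5.66 ± 0.76). Nlrp4c (-5.16), Ap3b2 (-5.10), the ubiquitin ligase gene Rnf182 (-4.72) and Cd24a, a surface glycoprotein (-4.44), also fell. Of high-signal genes picked by rule, Tmsb4x, thymosin beta 4 (3.83), and Bex1 (2.66) rose, and Cct5 (-1.88) and Cct8 (-1.59), neither called with quantile normalization, Slc25a4, the mitochondrial ADP/ATP carrier (-1.70), and Srsf9 (-2.04) fell. Isl2, a LIM homeobox gene, was measured on both PGC arrays (140.4 and 210.4) and on neither EG array. Prl2c5, of a family with near-identical copies, was measured on both EG arrays (441 and 97.1) and neither PGC array.

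X-linked genes were called higher in EG cells in a greater share than the genes of any single autosome. Of 504 X-linked genes tested 62 rose (12.3%) and 16 fell (3.17%), while the shares on single autosomes ran from 3.86% to 7.41% for higher and from 5.44% to 10.7% for lower genes. The median change was 0.05 on X and between -0.33 and -0.13 on the autosomes. Within series A 86 X-linked genes rose (17.1%, against 8.33% on autosomes), and without single EG or PGC arrays between 11 and 30 did (2.18% to 5.95%, against 0.864% to 2.27%). Eras, Slc6a8 and Nr0b1, described above, are X-linked. So are Armcx1 (152 and 156 in EG cells, against 3.03 and 4.29 in E11.5 PGCs), Pgrmc1 (869 and 743 in EG cells, against 61.5 and 58.0 in E11.5 PGCs) and Timp1, a protease inhibitor (502 and 506 in EG cells, against 65.6 and 42.6 in E11.5 PGCs), which rose by 5.42 ± 0.49, 3.75 ± 0.24 and 3.25 ± 0.62, and Hmgn5, a nucleosome-binding protein, which fell by 3.02 ± 0.44; the last 4 were chosen after their values were seen. Of Y-linked genes, Zfy1, a zinc finger gene, had 2.09 and 3.09 in EG cells, against 47.5 and 52.05 in E11.5 PGCs, and Kdm5d, a histone demethylase, 30.6 and 29.3 in EG cells, against 36.3 and 47.6 in E11.5 PGCs. The labels do not give the sex of either group, and its part in these values was not tested.

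**Figure D4:**
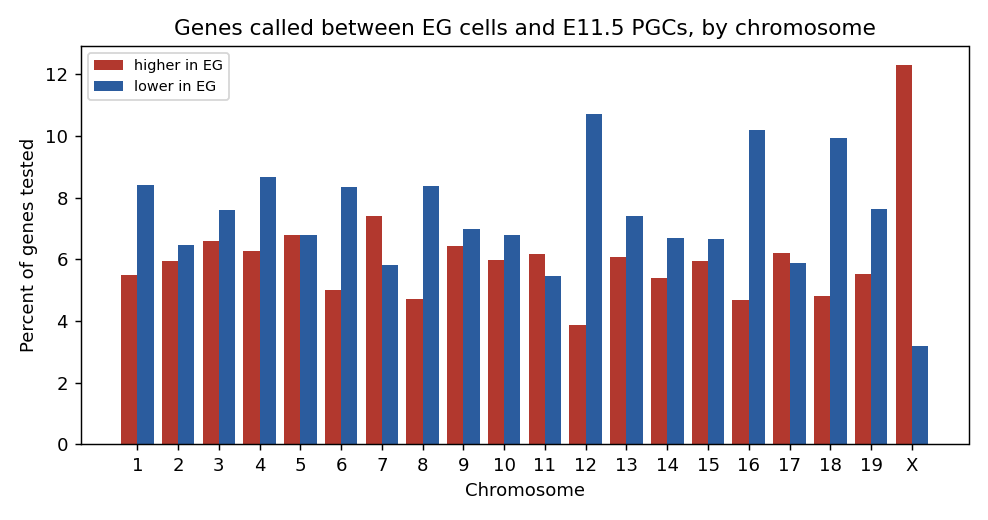
Percent of tested genes on each chromosome (horizontal) called higher (red) and lower (blue) in EG cells than in E11.5 PGCs, with 1 probe per gene. X has the highest red bar (12.3%) and the lowest blue bar (3.17%).

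Markers of other cells that a gonad or culture could hold were followed by summed intensity. A few bright genes can carry such sums. Amhr2 and Podxl held much of the gonadal sums in EG cells, and Laptm5 and Cd68 most of the blood sums. Median changes were -0.02 for gonadal somatic, 0.48 for fibroblast and mesenchyme, 0.17 for endothelial, -0.24 for blood and 0.38 for extraembryonic genes. Within array series A they were 0.26, 0.70, 0.07, -0.21 and 0.02. Gonadal somatic genes summed to 556 and 608 in EG cells, against 279.9 and 319 in PGCs, with 10 of them near the floor in EG cells and 7 in PGCs. Amhr2 (136 and 143 in EG cells, against 7.87 and 7.22 in E11.5 PGCs), Podxl and Cyp11a1 rose by 4.21, 2.19 and 1.34, the last without a call within series A, and Pax8 fell (-2.02). Gata4 and Nr5a1, 2 markers chosen after their values were seen, had 1.35 and 1.83, and 1.02 and 1.29, in EG cells, against 2.56 and 5.55, and 1.89 and 3.74, in PGCs. Fibroblast and mesenchyme genes, which feeder cells would add, summed to 3087 and 2380.0 in EG cells, against 1368 and 1893 in PGCs. Of these 0 of 27 were called by limma, where 12.0% of all probes were. At an unadjusted p under 0.05, 3 were higher, where 5805 of all 20761 probes passed in either direction. Col1a1 had 9.34 and 11.8 in EG cells, against 6.04 and 9.01 in E11.5 PGCs, whereas S100a4 had 808 and 190.04 in EG cells, against 4.04 and 1.48 in E11.5 PGCs (adjusted p = 0.0538, and 0.0306 with the series term) and Thy1 96.6 and 71.04 in EG cells, against 4.64 and 1.99 in E11.5 PGCs (adjusted p = 0.126) and neither was called. Endothelial genes (4 higher, 2 lower of 23) summed to 924 and 911 in EG cells, against 718.5 and 875 in PGCs. Robo4 (3.86), Nos3 (1.61), Sox18 (1.56, not called with quantile normalization or the pseudocount) and Egfl7 (1.44) rose, Cldn5 (-2.84) and Pecam1 fell, and Kdr had 15.8 and 18.2 in EG cells, against 23.7 and 18.2 in E11.5 PGCs. Blood genes (2 higher, 3 lower of 17) summed to 640.1 and 709.5 in EG cells, against 261 and 394 in PGCs. Laptm5, a lysosomal protein of blood cells, rose by 4.57 ± 0.43 (200.2 and 261 in EG cells, against 8.98 and 10.4 in E11.5 PGCs), and so did Cd68, a lysosomal protein of macrophages, by 2.10 ± 0.39 (283 and 307 in EG cells, against 64.2 and 73.6 in E11.5 PGCs). Ptprc (CD45) had 4.04 and 3.04 in EG cells, against 4.87 and 5.74 in E11.5 PGCs, and Tyrobp, a signalling adaptor of myeloid cells, fell (-1.84). C1qa and C1qb, complement genes of macrophages, fell (-3.08 ± 0.74 and -2.94 ± 0.62), with EG values near the floor. With the pseudocount their changes were -2.13 and -2.11, and C1qa was not called (adjusted p = 0.0657), nor with quantile normalization (0.0553). Extraembryonic genes summed to 1282 and 1226 in EG cells, against 2775 and 4171 in PGCs, and of 23 tested Hnf4a (1.58) and Lama1 (1.44) rose and Amn (-1.32) fell. The part of other cells in the results was not tested.

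The intermediate culture days show where values of the named genes lay between these ends. Lhx1 was at 4.68 and 5.25 on day 3 and 3.23 and 5.199 on day 6, so it lay near its EG level after 3 days. Cpeb1 had 131 and 216 on day 3 and 14.9 and 21.7 on day 6, close to EG cells by day 6. Dazl remained at 999 and 1971 on day 3, and the day 6 arrays differed, at 188 and 1024. Among gains, Klf4 had 326 and 234 on day 3 and 859 and 774 on day 6, near the EG arrays by day 6. Zscan4c was at 1.44 and 16.1 on day 3 and 45.6 and 100.2 on day 6, below both EG arrays throughout. Dnmt3l was at 96.7 and 22.5 on day 3 and 717 and 122 on day 6, with replicate 1 above replicate 2 on both days. On both days replicate 1 is of array series A, like both EG arrays, and replicate 2 is of series B. Replicate and series therefore cannot be told apart in these values.

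**Figure D5:**
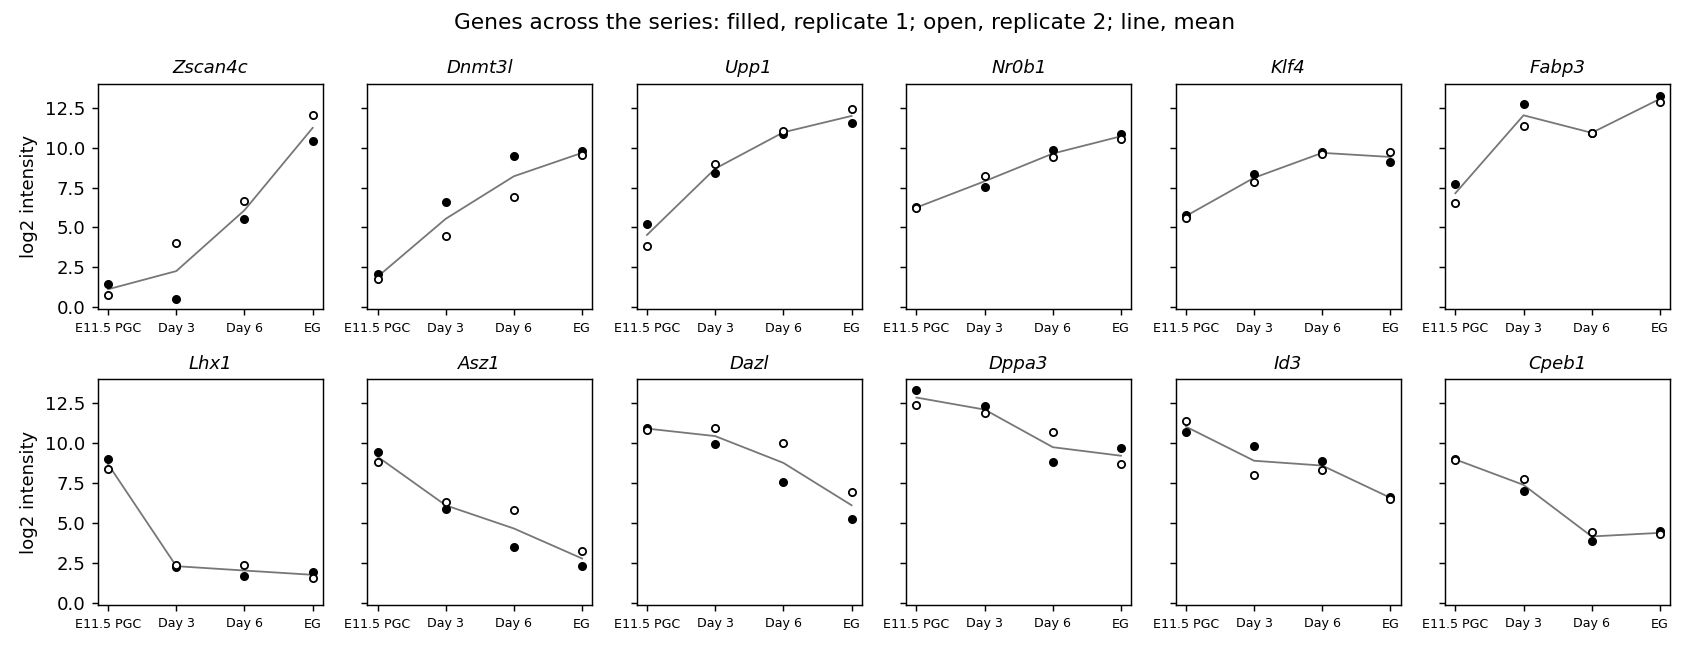
Log2 intensity (vertical) of 12 genes in E11.5 PGCs, on culture days 3 and 6, and in EG cells; filled points are replicate 1, open points replicate 2, and the line joins the means. The upper 6 genes end higher in EG cells and the lower 6 end lower, with Lhx1 down by day 3 and Zscan4c at its highest only in EG cells.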

How the data were processed

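Intensity values were deposited as scaled linear numbers, 1 per probe and array. Per the labels' protocols total RNA was column-purified, amplified to aminoallyl-modified aRNA and coupled to Cy5. How background was corrected, how values were scaled and why cells are missing is not given in the sources used here. All 8 array medians lay near 20. Of the values of probes with missing cells, 90% fell under 4.56. A few such probes were bright, since those measured in 1 group only reached a mean of 207 in EG cells and 172 in PGCs. Values were converted to log2 with no further normalization.

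A linear model per probe with limma 3.58.1 in R 4.3.3 used all 8 arrays in 4 groups, with no other term. Moderated tests were two-sided, and p-values were adjusted by Benjamini-Hochberg across the 20761 probes. Probes with a value missing in either group were not tested. Of 23473 probes 16631 had 1 gene symbol, 12622 current, 3947 updated through synonyms and 62 kept; 6842 had none. A gene's brightest probe was used. The procedure was tested on simulated data.

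Named genes were the 15 highest and 15 lowest changes among called probes with no overlap and both arrays of the brighter group at 100 or more, the 8 brightest measured in 1 group only, 5 of high signal in each direction, up to 4 called members in each direction of each of 38 lists (up to 3 of the brightest where few were called), and a fixed marker set. A few genes were added after their values were seen (Sall1, Kdm5d, Hells, Id4, Smad6, Padi6, Khdc3, Zp3, Npm2, Mov10l1, Piwil2, Tdrd5, Hk2, Sqle, Perp, Plk2, Ei24, Fas and the cell type markers Gata4, Nr5a1, Kdr, Ptprc, Col1a1, S100a4 and Thy1). Members and lists were chosen with earlier results of these data known. Replicate numbers did not pair EG with other arrays (correlations of deviations -0.0246 to 0.0611). They did go with shared deviations among the other groups. Between E11.5 PGCs and days 3 and 6 the correlations were 0.62 and 0.547. Between day 3 and day 6 the correlation was 0.694. In these groups replicate number and array series coincide, and the main model has no term for either.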

Additional observations from a re-analysis of the deposited data

How the results depend on the processing

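Of 179 named genes called, 179 were also called with the array series as a term, and none of these calls changed sign under any alternative listed here. The fit within series A has 1 array in each group but EG, so its calls rest on the spread between the 2 EG arrays. The count of calls was 2490, against 5106 with the array series as a block (1982 higher and 3124 lower), 4229 within array series A alone (2519 lower) and 4084 with the 4 arrays of both groups alone (2270 lower). With the replicate number as a block it was 4062 (2315 lower), a number that pairs no EG array with a PGC array. Calls among the list genes were 181, against 311 with the array series block, 275 in series A and 274 with the 4 arrays alone. Without 1 array the count ran from 240 to 2969, with higher calls from 176 to 1423 and lower from 64 to 1546; list calls ran from 32 to 213 and named calls from 42 to 177. Named calls were 59 and 42 without EG replicate 1 and 2, and 82 and 68 without PGC replicate 1 and 2, and 40 held in all 4. With quantile normalization 167 named genes were called, since Atp5o, Bcl3, C1qa, Cct5, Cct8, Cycs, Dmrt1, Mcm6, Pecam1, Pkp2, Slc7a3, Socs2 and Sox18 lost their call (adjusted p from 0.0537 to 0.117). The pseudocount ended the calls of Bcl3, C1qa and Sox18, and series A alone those of Cbx2, Ccn1, Cyp11a1, Esrp1, Fbxo15, Jak2, Prss8 and Slc38a5. Quantile normalization, a pseudocount of 2, removal of the dimmest probes and trend with robust variance gave 2376 to 2854 calls; quantile normalization moved the median change to -0.10 and the split to 1362 higher and 1014 lower. With 2 arrays per group and many PGC or EG values near the floor, the number of arrays and dim signal limit precision, and sizes near the floor are not exact.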

Other observations

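Families with shared names, picked after their values were seen, gave no test but add to the picture. The 5 tested Armcx genes, an X-linked group of armadillo-repeat proteins, had changes from 0.32 to 5.42, with 3 called. Armcx3 (1.17, with PGC values near the floor) and Armcx6 (0.32) were not called by limma (adjusted p = 0.358 and 0.47). The 4 Bex genes, also X-linked, had changes from 1.12 to 2.66, with 3 called. Of all probes 5.86% were called higher, and of X-linked genes 12.3%. Of 76 mitochondrial ribosomal protein genes 7 were called lower, where 6.13% of all probes were, and their median change was -0.54, where that of all probes was -0.16. The 9 Mcm genes, most of them of the replicative helicase, had changes from -1.34 to -0.22, with 1 called. Beta-tubulin genes split, with 3 of 7 called higher; Tubb2a had 795 and 1155 in EG cells, against 52.7 and 38.5 in E11.5 PGCs (4.41 ± 0.47). Among 8 chaperonin genes 2 fell and 1 rose.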
